A study of Mus musculus with 4 samples.

Results

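The imprinted growth genes examined here are Igf2, H19, Igf2r, Meg3, Dlk1, Grb10, Plagl1, Peg3, Mest and Zim1, measured in the ventricles of newborn mice. They were taken by name from the 53465 genes of the count files, and all 10 of them were found and passed the filter on low counts. The rule that names them uses what is known of these genes and no measured value, but the choice was made with earlier results of these data known. The 4 libraries came from frozen ventricles at postnatal day 1, 2 from each group. Control mice carried Ctnnb1floxP/floxP and were alphaMHC-Cre-, and the knockout-labelled mice, whose libraries are also called Cre+ here, carried Ctnnb1floxP/floxP and were alphaMHC-Cre+. Floxed alleles of Ctnnb1, the β-catenin gene, were therefore common to every animal, and the groups differ in the transgene as well as in the deletion that it is meant to cause. The alpha myosin heavy chain promoter drives Cre in cardiomyocytes, so other cells of the ventricle keep their floxed alleles intact. A control with Cre and without floxed alleles was not analysed here. No label states that the libraries are from different animals. Knockout-labelled 1 and 2 showed a male and a female pattern of sex-linked genes, so they were not repeats of 1 animal. Both controls showed a male pattern, and whether they came from different animals was not tested. The p-values below measure the spread between the libraries, which may be technical for the controls and partly so for the Cre+ pair.

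An imprinted gene is transcribed mainly from the copy inherited from one parent, as set by DNA methylation laid down in the egg or sperm. Many such genes act on growth before and just after birth: paternally expressed Igf2, Dlk1, Plagl1, Peg3 and Mest, and maternally expressed H19, Igf2r, Meg3, Grb10 and Zim1. In many organs, the heart among them, members of this network are abundant in the fetus and decline after birth as growth slows. Read counts per gene add the copies of both parents, so they say nothing about the imprint itself.

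Libraries held between 34027143 and 45651797 counts in genes, and the members held between 868 counts (Igf2 in knockout-labelled 2) and 111279 (H19 in knockout-labelled 1), so counting error was small beside the spread between libraries. Ctnnb1, the targeted gene, was at 409 and 434 CPM (counts scaled to a library of 1e6 counts after TMM normalization) in controls 1 and 2, against 527 and 460 CPM for knockout-labelled 1 and 2. That count spans the whole gene and all cell types, and it checks no label. Knockout-labelled 2 was the only library with Xist above 1 CPM (602 CPM) and with at most 1 read in each of 4 Y-linked genes, a female pattern, while the other 3 showed a male one. T-cell and thymus markers summed to 410 and 7.99 CPM in controls 1 and 2, against 2.91 and 1.89 CPM in knockout-labelled 1 and 2. All 10 tested markers of that list lay below both controls in both knockout-labelled libraries (100%, against 29.7% of all genes). Cardiomyocyte markers, Myh6 and Tnnt2 among them, summed to 60826 and 53073 CPM in controls 1 and 2, against 66838 and 74247 CPM in knockout-labelled 1 and 2. The defining markers of the labelled tissue were thus present. Of these 11 markers 5 lay above both controls in both knockout-labelled libraries (45.5%, against 26.5% of all genes) and 0 below (29.7% of all genes). Their part in the members' values was not tested.

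Across the 10 genes the group means differed most for Mest, which was more than 2-fold higher in the Cre+ libraries, and for Igf2 and Meg3, which were lower. None of these differences passed the main test. edgeR's quasi-likelihood test, with p-values adjusted by Benjamini-Hochberg across the 18157 genes tested and called under 0.05, called 0 of the 10 members, and it called 2 genes in all (0.0110%), the processed pseudogenes Gm8730 and Gm9625, both higher. The members' adjusted p-values ran from 0.123 for Mest to 0.915 for Grb10. At an unadjusted p under 0.05 edgeR had 2 members, Mest higher and Meg3 lower, against 23.0% of all genes. DESeq2 called 1 member, Mest, against 11.2% of the genes to which it gave an adjusted p. limma-voom called 0 members and 0 genes (0%), with 22.2% of all genes at an unadjusted p under 0.05.

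In 7 members the 2 groups did not overlap: the Cre+ pair stood above the control pair for H19 and Mest, and below both for Igf2, Igf2r, Meg3, Plagl1 and Zim1. Of all genes tested 56.2% were separated in this way, 26.5% above and 29.7% below. The members' shares were 20.0% above, under that of all genes, and 50.0% below, over it, and with 10 genes such shares are coarse. For Plagl1 and Zim1 the separation is slight. Plagl1 was at 285.7 CPM in control 1 and 285.5 CPM in knockout-labelled 1, and Zim1 at 43.55 and 43.53 CPM in the same libraries. The median log2 fold change of the members was -0.23, and that of all genes tested was -0.02. The members' median was -0.44 without knockout-labelled 1, -0.09 without knockout-labelled 2 and -0.06 with trends of GC content and exon length taken out.

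**Figure D1:**
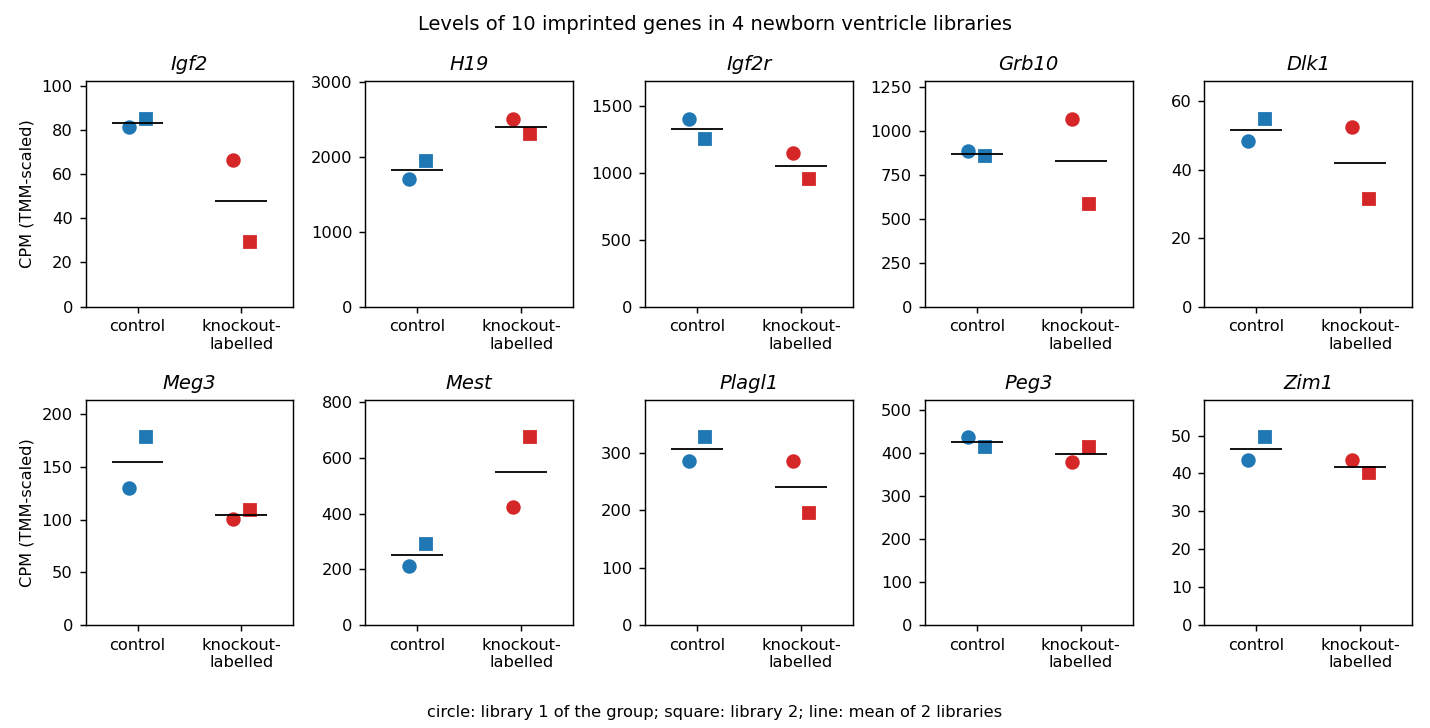
Level of each of the 10 genes in each library, in TMM-scaled CPM on a linear axis from 0, with 1 panel a gene; blue points are controls, red points knockout-labelled libraries, circles and squares are libraries 1 and 2 of the group, and the bar is the mean of 2. Mest stands at 210 and 291 CPM in the controls and reaches 422 and 674 CPM in the other group, while for Igf2, Dlk1, Grb10 and Plagl1 the square of knockout-labelled 2 sits lowest.

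Igf2 encodes insulin-like growth factor 2, the main fetal growth ligand of the family, which signals through Igf1r and the insulin receptor. It stood at 81.3 and 85.2 CPM in controls 1 and 2, against 66.4 and 29.4 CPM for knockout-labelled 1 and 2. Controls lay close together, and both knockout-labelled libraries were lower, the second by far the more. The means of the groups came to 83.3 ± 2.79 and 47.9 ± 26.2 CPM (SD, n = 2 per group), with a log2 fold change of -0.80 ± 0.37 (SE; 95% interval -1.69 to 0.10; edgeR adjusted p = 0.256). Leaving out knockout-labelled 2 brought the value to -0.32, and leaving out knockout-labelled 1 to -1.45 (edgeR adjusted p = 0.0537). With GC and length trends taken out it was -0.48. Igf2 lies on the reverse strand of chromosome 7 from 142650766 to 142666816 (GRCm38). In GENCODE vM21, 62.8% of its exon bases also belong, on the same strand, to Gm49394, a predicted gene that has 0 counts in all 4 files. HTSeq in its default mode sets reads in shared exons aside as ambiguous. The mode used is not given in the sources used here, so the Igf2 count may rest on the 2127 exon bases that are free of other genes on the same strand. The share of ambiguous reads was 4.85% and 4.43% in the controls and 4.28% and 3.90% in the Cre+ libraries, and their part in the Igf2 values was not tested.

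H19, the maternally expressed long noncoding RNA that shares an imprinting control region with Igf2, was the most abundant member. It was at 1699 and 1941 CPM in controls 1 and 2, against 2510 and 2299 CPM for knockout-labelled 1 and 2. Both knockout-labelled libraries were higher than both controls, by a log2 fold change of 0.40 ± 0.25 (SE; 95% interval -0.22 to 1.02; edgeR adjusted p = 0.386). With GC and length trends taken out it was 0.64, and scaled by library totals alone 0.16, where the median of all genes was -0.26. H19 occupies positions 142575529 to 142578143 on the reverse strand of chromosome 7. An exon of it holds the precursor of miR-675, a microRNA that was not measured in these polyA libraries. Its mature arms (RefSeq, GRCm38.p6, reverse strand) are printed because their precursor lies within H19, with the seed, bases 2 to 8, in capitals:
mmu-miR-675-5p: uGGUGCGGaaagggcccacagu
mmu-miR-675-3p: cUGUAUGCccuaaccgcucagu
The arms have different seeds. The 84 bases of the Mir675 precursor make up 3.41% of the exon bases of H19, so the H19 value is that of the long RNA. Mir675 is also listed as a gene of its own on the same strand. Whether reads in the shared bases were counted for H19 depends on the HTSeq mode, which is not given.

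Igf2r encodes the cation-independent mannose 6-phosphate receptor, which carries lysosomal enzymes to the lysosome and removes IGF2 from the cell surface. Levels were 1406 and 1255 CPM in controls 1 and 2, against 1146 and 952 CPM in knockout-labelled 1 and 2. Every knockout-labelled value was below every control value. The log2 fold change was -0.34 ± 0.24 (SE; 95% interval -0.93 to 0.24; edgeR adjusted p = 0.432). It was -0.09 with GC and length trends taken out and -0.21 without knockout-labelled 2. Igf2r runs on the reverse strand of chromosome 17 from 12682406 to 12769664. Airn, the paternally expressed antisense RNA whose transcription silences the paternal Igf2r copy, starts in an Igf2r intron and runs the other way. It was at 104 and 97.8 CPM in controls, against 52.0 and 53.3 CPM in the Cre+ libraries. Its log2 fold change was -0.94 ± 0.15 (SE; adjusted p = 0.0925 in edgeR, adjusted p = 0.000318 in DESeq2). Airn and Igf2r thus both lay lower in the Cre+ libraries. Use of strand in the counting is not given in the sources used here, and without it reads from Airn and from unspliced Igf2r could not be told apart.

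Grb10, an adaptor that binds the insulin and IGF1 receptors and dampens their signal, did not separate the groups. It stood at 884 and 855 CPM in controls 1 and 2, with 1069 CPM in knockout-labelled 1 and 584 CPM in knockout-labelled 2. Controls lay between the knockout-labelled libraries. Grb10 had a log2 fold change of -0.07 ± 0.33 (SE; 95% interval -0.87 to 0.72; edgeR adjusted p = 0.915), which was 0.31 without knockout-labelled 2 and 0.09 with GC and length trends taken out. Its neighbour Ddc, the aromatic amino acid decarboxylase, which is imprinted in the developing mouse heart, showed the same order: 113 and 115 CPM in the controls, 154 CPM in knockout-labelled 1 and 75.0 CPM in knockout-labelled 2. Grb10 (chromosome 11, 11930508 to 12038683, reverse strand) and Ddc are transcribed from the same strand. Cobl, an actin nucleator on the other side of Grb10, was at 30.5 and 29.4 CPM in controls, against 22.3 and 15.9 CPM in the Cre+ libraries (log2 fold change -0.65 ± 0.22, SE; edgeR adjusted p = 0.160), and the fold change was -0.42 without knockout-labelled 2.

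Dlk1 and Meg3 are neighbours on chromosome 12, Dlk1 from 109452823 to 109463336 and Meg3 from 109541001 to 109571726, both on the forward strand. Dlk1 encodes a membrane protein of the Notch ligand family that restrains differentiation, and Meg3 a maternally expressed long noncoding RNA. Dlk1 was at 48.4 and 54.9 CPM in controls 1 and 2, against 52.5 and 31.6 CPM for knockout-labelled 1 and 2. Only knockout-labelled 2 stood apart, and the log2 fold change of -0.30 ± 0.26 (SE; 95% interval -0.94 to 0.34; edgeR adjusted p = 0.537) was 0.03 without it, -0.66 without knockout-labelled 1 and -0.04 with GC and length trends taken out. Meg3 was at 130 and 178 CPM in controls, against 100 and 109 CPM in the Cre+ libraries. These groups did not overlap, and the knockout-labelled pair agreed more closely than the controls. The Meg3 log2 fold change was -0.56 ± 0.21 (SE; 95% interval -1.07 to -0.06; unadjusted p = 0.0349, edgeR adjusted p = 0.183). It was -0.27 with GC and length trends taken out and -0.31 without control 2.

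Rian, a maternally expressed snoRNA host transcribed downstream of Meg3 from the same strand, lay on the other side of 0. It was at 50.6 and 73.9 CPM in controls, against 82.4 and 113 CPM in the Cre+ libraries, a log2 fold change of 0.65 ± 0.25 (SE; edgeR adjusted p = 0.201) that was 0.40 without control 1 and 0.41 without knockout-labelled 2. Mirg, the microRNA host further downstream, overlapped between the groups at 2.35 to 4.36 CPM. Rtl1, the paternally expressed retrotransposon-derived gene on the opposite strand between Meg3 and Rian, was at 4.44 and 4.46 CPM in controls, against 2.86 and 2.91 CPM in the Cre+ libraries. Begain, a gene upstream of Dlk1 that encodes a synaptic scaffold-associated protein, was at 3.73 and 4.07 CPM and then at 1.92 and 1.45 CPM, with an adjusted p of 0.128 in edgeR and 0.0494 in DESeq2; its log2 fold change of -1.20 was -0.70 with GC and length trends taken out. Neighbours of the Dlk1-Meg3 domain thus lay on both sides of 0.

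Mest, a paternally expressed gene for a membrane enzyme of the α/β-hydrolase fold, showed the largest difference of the 10. It was at 210 and 291 CPM in controls 1 and 2, against 422 and 674 CPM for knockout-labelled 1 and 2. Both knockout-labelled libraries were above both controls, and the spread within each group was wide. The groups averaged 251 ± 57.2 and 548 ± 178 CPM (SD, n = 2 per group), with a log2 fold change of 1.13 ± 0.30 (SE; 95% interval 0.38 to 1.87; unadjusted p = 0.00990, edgeR adjusted p = 0.123). DESeq2 put it at 1.16 ± 0.31 (SE; adjusted p = 0.00447), and the authors' deposited table, whose processing notes name DESeq2, at 1.15 (adjusted p = 0.00500). The DESeq2 call did not hold in every fit with 1 library left out, where 1 group rests on a single library. In these fits the Mest value was 0.95 without control 1 and between 0.77 and 1.49 without each of the other libraries. In edgeR the value ran from 0.76 without knockout-labelled 2 to 1.48 without knockout-labelled 1. Of 10 fibroblast markers 3 were above both controls in both knockout-labelled libraries, 30.0% against 26.5% of all genes, and 0 below. The list summed to 3274 CPM in control 1, the library with the lowest Mest, and to 5080, 5189 and 4897 CPM in control 2 and knockout-labelled 1 and 2. Their part in the Mest values was not tested, and in such bulk tissue more cells of a type and more RNA per cell cannot be told apart.

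RefSeq gives Mest starts in 2 places, and a count per gene does not tell which start was used. The 250 bases before a start at each place are printed, since Mest is the member with the largest difference; both are on the forward strand of GRCm38.p6, with CpG dinucleotides, the sites of imprint methylation, in capitals:
Mest upstream start, chr6:30733256-30733505: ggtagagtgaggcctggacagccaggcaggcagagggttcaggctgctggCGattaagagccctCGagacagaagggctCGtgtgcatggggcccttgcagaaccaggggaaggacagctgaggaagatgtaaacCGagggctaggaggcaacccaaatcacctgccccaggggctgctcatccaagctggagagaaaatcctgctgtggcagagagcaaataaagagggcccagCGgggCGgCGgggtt
Mest downstream start, chr6:30737800-30738049: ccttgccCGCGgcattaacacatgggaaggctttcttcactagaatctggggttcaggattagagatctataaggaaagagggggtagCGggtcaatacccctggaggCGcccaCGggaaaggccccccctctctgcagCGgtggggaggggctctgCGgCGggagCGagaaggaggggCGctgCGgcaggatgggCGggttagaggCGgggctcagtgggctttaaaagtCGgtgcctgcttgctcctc
These windows hold 7 and 14 CpGs, against a median of 6 over 32817 promoter windows of this length in RefSeq. Over the 16 windows of the 9 members with an entry, the number ranged from 0 at a second Meg3 start to 40 at a Grb10 start. CpG content was not measured as methylation, and nothing here bears on the imprint. Mest also hosts miR-335 in an intron, likewise not measured in these libraries. Its mature arms (RefSeq, forward strand), with the seed in capitals, are shown because their host is the member that DESeq2 called:
mmu-miR-335-5p: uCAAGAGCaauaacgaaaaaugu
mmu-miR-335-3p: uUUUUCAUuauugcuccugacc
The arms share no seed with each other or with those of miR-675.

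Copg2, a coat protein subunit gene that meets Mest tail to tail, was at 65.6 and 65.7 CPM in controls, against 91.1 and 93.0 CPM in the Cre+ libraries. Its log2 fold change was 0.49 ± 0.15 (SE; edgeR adjusted p = 0.141). Copg2 exons overlap 23.1% of the Mest exon bases on the opposite strand, and since the use of strand is not stated the Mest count may leave out part of the gene. Mest spans 30723547 to 30748465 on the forward strand of chromosome 6.

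Plagl1 encodes a zinc finger transcription factor that regulates other imprinted genes, Igf2, H19, Dlk1 and Cdkn1c among them, and restrains the cell cycle. It was at 286 and 328 CPM in controls 1 and 2, with 286 and 196 CPM in knockout-labelled 1 and 2. Only knockout-labelled 2 was clearly lower. The log2 fold change was -0.35 ± 0.24 (SE; 95% interval -0.94 to 0.24; edgeR adjusted p = 0.429). It was -0.09 without knockout-labelled 2 and -0.60 without knockout-labelled 1. Plagl1 lies on chromosome 10 between 13060504 and 13131694, forward strand. Cdkn1c, the imprinted inhibitor of cyclin-dependent kinases, was at 37.6 and 34.9 CPM in controls, against 39.9 and 52.8 CPM in the Cre+ libraries (log2 fold change 0.35 ± 0.19, SE; edgeR adjusted p = 0.319); the fold change was 0.15 without knockout-labelled 2.

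Peg3 and Zim1 are zinc finger genes of a single imprinted domain on chromosome 7, with Peg3 expressed from the paternal copy and Zim1 from the maternal. Peg3 (6703892 to 6730431, reverse strand), a DNA-binding repressor, was at 436 and 413 CPM in controls 1 and 2, against 379 and 413 CPM for knockout-labelled 1 and 2. Control 2 and knockout-labelled 2 were nearly equal. Its log2 fold change of -0.10 ± 0.19 (SE; 95% interval -0.56 to 0.37; edgeR adjusted p = 0.789) was 0.08 with GC and length trends taken out and 0.01 without knockout-labelled 1. Zim1 (6671269 to 6696450, reverse strand) was at 43.6 and 49.6 CPM and at 43.5 and 40.0 CPM, a log2 fold change of -0.16 ± 0.16 (SE; 95% interval -0.55 to 0.24; edgeR adjusted p = 0.597). That value was -0.05 without control 2 and -0.09 without knockout-labelled 2. Usp29, the ubiquitin protease gene that shares a promoter region with Peg3, overlapped between the groups at 5.17 to 7.81 CPM. Of the 10 genes, Peg3 and Zim1 had the narrowest intervals, though these still allow a change of about 0.5 on the log2 scale.

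**Figure D2:**
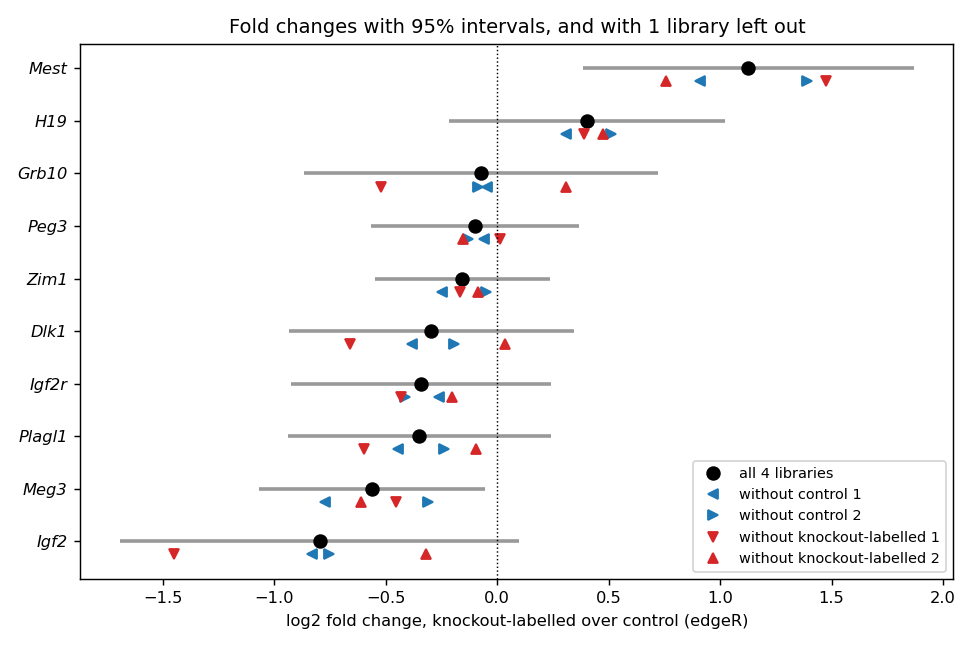
Log2 fold change of each of the 10 genes, knockout-labelled over control, with all 4 libraries (black points; grey bars are 95% intervals from edgeR) and with 1 library left out (coloured triangles). The interval leaves out 0 for Mest and Meg3. The red triangles of Igf2, Grb10, Mest and Dlk1 lie far apart. They are at -1.45 and -0.32 for Igf2, -0.52 and 0.31 for Grb10, 1.48 and 0.76 for Mest, and -0.66 and 0.03 for Dlk1.

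Several members turned on the difference between the knockout-labelled libraries. Knockout-labelled 2 was at 0.44 times the level of knockout-labelled 1 for Igf2, 0.55 times for Grb10, 0.60 times for Dlk1 and 0.69 times for Plagl1. By contrast it was at 1.60 times for Mest and between 0.83 and 1.09 times for H19, Igf2r, Meg3, Peg3 and Zim1. Between the controls no member differed by more than the 1.38 times of Mest. For 6 of the 10 genes knockout-labelled 2 was the lowest of the 4 libraries. It was also the female one, had the lowest total of 34027143 counts and had the most multiply mapped reads, 29.7% against 19.4% to 23.9%. Knockout-labelled 1 had the next highest share, 23.9%, so multiple mapping separated the groups as well. The part of sex, depth and multiple mapping in these values was not tested. Without knockout-labelled 2, Grb10 and Dlk1 lay on the other side of 0 and the other 8 members kept their direction. Without control 1, the library with by far the most T-cell transcripts, all 10 kept it.

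Levels can be compared between genes only per length. In CPM per kilobase of exon, H19 stood far above the rest at 740 ± 69.7 in the controls and 977 ± 60.7 in the Cre+ libraries (SD, n = 2 each). Then came Igf2r with a mean over the 4 libraries of 128 ± 20.5 (SD, n = 4), Mest with 101 ± 51.4 and Grb10 with 93.3 ± 22.0. That order depends on the length used. Per kilobase of the longest transcript Igf2r was at 134, Mest at 150 and Grb10 at 168, the reverse order. The range of Mest overlapped those of Igf2r and Grb10, while H19 and Igf2r, and Grb10 and Plagl1, were separate. In the controls Mest stood at 53.3 and 73.9 CPM per kilobase, below Grb10 at 97.3 and 94.0, and in knockout-labelled 2 it was above Igf2r, at 171 against 102. Plagl1 at 35.0 ± 7.12 and Peg3 at 30.8 ± 1.77 overlapped each other and lay below Grb10. Per kilobase of the longest transcript they were at 52.0 and 47.2. Igf2 at 11.5 ± 4.45, Dlk1 at 8.28 ± 1.86, Meg3 at 7.16 ± 1.93 and Zim1 at 5.46 ± 0.49 formed the lowest group, each overlapping the next. If only the exon bases of Igf2 that are free of other genes on the same strand are counted, its mean is 30.8 CPM per kilobase, near that of Peg3.

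**Figure D3:**
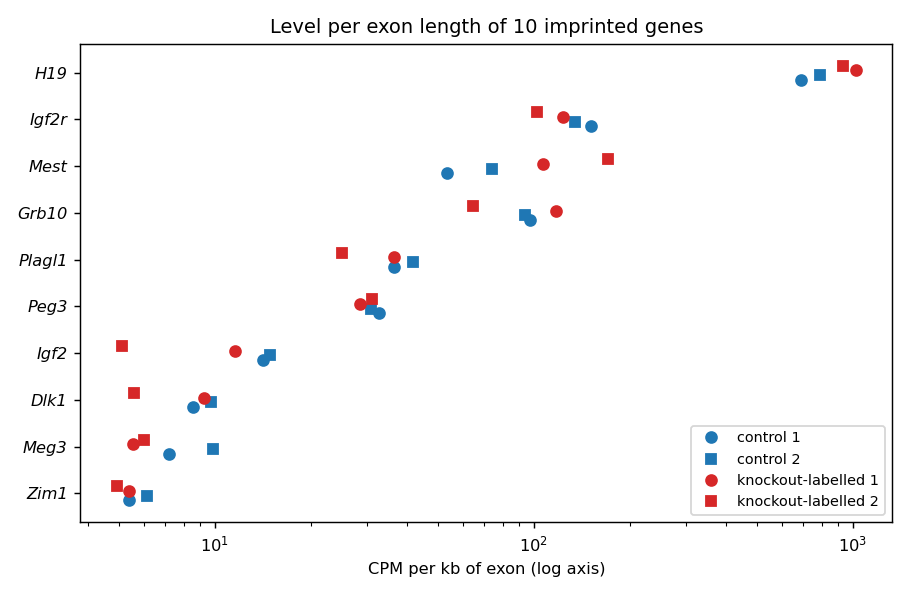
Level of the 10 genes in CPM per kilobase of exon in each library, on a log axis, ordered by the mean of 4 libraries; blue and red are control and knockout-labelled, circles and squares libraries 1 and 2. H19 stands alone between 691 and 1020, and Mest lies below Grb10 in both controls and in knockout-labelled 1 and above it in knockout-labelled 2.

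Ratios of counts within a library need no scaling, and those of gene pairs from an imprinted locus were compared for 7 pairs chosen after the values had been seen. With 2 libraries against 2, an exact permutation test (two-sided) cannot go below p = 0.333, the value of each pair whose groups did not overlap. Igf2 stood at 0.0479 and 0.0439 counts per H19 count in the controls and at 0.0264 and 0.0128 in the Cre+ libraries, both of them lower. Rian stood at 0.388 and 0.414 counts per Meg3 count in the controls and at 0.820 and 1.04 in the Cre+ libraries. The mean ratio was 2.32 times as high in the Cre+ group. Igf2r over Airn was 13.5 and 12.8, then 22.1 and 17.9. Mest over Copg2 was 3.21 and 4.43, then 4.63 and 7.24, with the nearest libraries of the groups close together. The remaining 3 ratios overlapped between groups. Grb10 over Ddc was nearly constant, between 6.94 and 7.86 in all 4 libraries, although Grb10 itself varied between 584 and 1069 CPM. Peg3 over Zim1 ran from 8.32 to 10.3, and Dlk1 over Meg3 from 0.290 to 0.523.

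**Figure D4:**
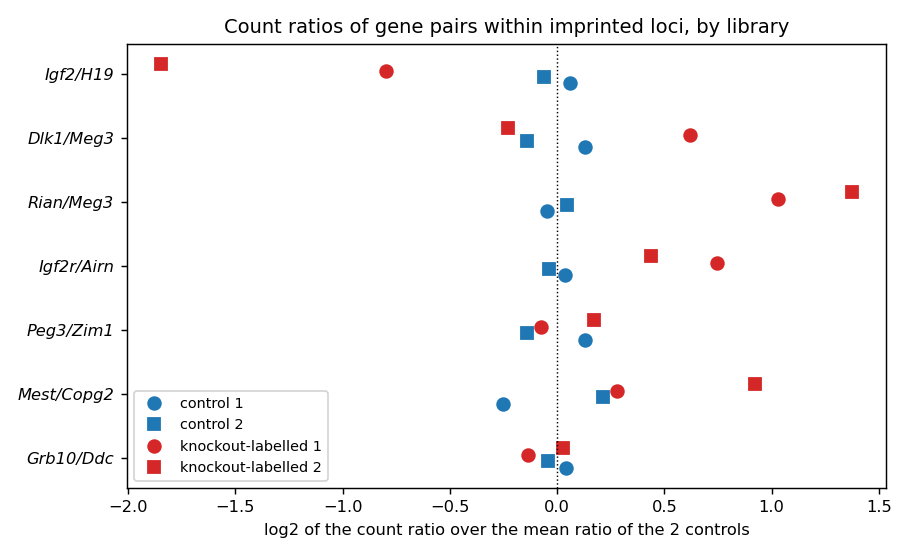
Ratio of counts of 2 genes of an imprinted locus in each library, as log2 over the mean ratio of the 2 controls; blue and red are control and knockout-labelled, circles and squares libraries 1 and 2. Rian over Meg3 lies higher and Igf2 over H19 lower in both knockout-labelled libraries, while Grb10 over Ddc stays near 0.

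Other imprinted genes showed no common direction. Of 60 further imprinted genes, 49 were tested, and edgeR called 0 over all genes (4 higher, 4 lower by an unadjusted p below 0.05, where 11.8% and 11.2% of all genes are found). DESeq2 called Snrpn higher and Airn and Begain lower (background 6.50% higher and 4.68% lower). The Cre+ pair stood wholly above the controls for 9 and wholly below for 12, shares of 18.4% and 24.5%, under those of all genes. Their median log2 fold change was 0.01, or 0.18 with GC and length trends taken out. Snrpn, a splicing protein gene of the Prader-Willi region, was at 13.4 and 13.9 CPM in controls, against 24.4 and 44.6 CPM in the Cre+ libraries, a log2 fold change of 1.34 ± 0.31 (SE; edgeR adjusted p = 0.0996) that was 0.85 without knockout-labelled 2. It shares its transcript with Snurf, which is listed at 0 in all 4 libraries, so their reads cannot be told apart.

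Around the ligand Igf2, no gene of the insulin-like growth factor axis passed edgeR's test. Of 45 listed genes 42 were tested, and edgeR called 0 over all genes, with 1 higher (Hmga2) and 3 lower (Tsc1, Tsc2 and Rptor) at an unadjusted p under 0.05 (11.8% and 11.2% of all genes). DESeq2 called 0 higher and 2 lower (background 6.50% and 4.68%). The Cre+ pair stood wholly above the controls for 2 of the 42 (4.76%, against 26.5% of all genes) and wholly below for 10 (23.8%, against 29.7%). The median log2 fold change was 0.02, and it lay at -0.12 without knockout-labelled 1, -0.10 without knockout-labelled 2, -0.10 without control 2 and 0.13 with GC and length trends taken out. The receptor Igf1r was at 134 and 134 CPM in controls, against 95.9 and 129 CPM in the Cre+ libraries, and the insulin receptor Insr at 223 and 226 and at 174 and 191 CPM. Igf1 overlapped between the groups at 29.0 to 57.3 CPM. Tsc1 and Tsc2, whose products together restrain mTOR complex 1, had log2 fold changes of -0.64 ± 0.16 and -0.62 ± 0.16 (SE; edgeR adjusted p = 0.112 and 0.120). DESeq2 called both lower (adjusted p = 0.0499 and 0.0423). With GC and length trends taken out they were at -0.35 and -0.27. Rptor, a subunit of that complex, was at 57.4 and 48.2 CPM and at 41.6 and 37.6 CPM, and its log2 fold change of -0.41 became 0.02 with GC and length trends taken out. Hmga2, an architectural DNA-binding protein of fetal growth, was at 1.48 and 2.08 CPM in controls, against 3.43 and 3.96 CPM in the Cre+ libraries (log2 fold change 1.05 ± 0.35, SE; edgeR adjusted p = 0.161).

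Of 18 genes of mannose 6-phosphate sorting, the lysosomal pathway of Igf2r, all were tested and edgeR called 0 over all genes. By an unadjusted p below 0.05, 1 was higher and 3 lower (11.8% and 11.2% of all genes). The Cre+ pair stood wholly above the controls for 2 (11.1%, against 26.5% of all genes) and wholly below for 6 (33.3%, against 29.7%). Gga3, a sorting adaptor of the Golgi, was at 48.4 and 44.0 CPM in controls, against 23.9 and 25.4 CPM in the Cre+ libraries (log2 fold change -0.91 ± 0.16, SE; adjusted p = 0.0925 in edgeR, 0.00201 in DESeq2). Vps35, a subunit of the retromer that returns the receptor to the Golgi, was at 72.9 and 86.5 CPM and at 129 and 118 CPM (log2 fold change 0.63 ± 0.17, SE; adjusted p = 0.125 in edgeR, 0.0243 in DESeq2). The cation-dependent receptor M6pr, which shares the task of Igf2r, ranged only from 72.0 to 84.2 CPM. Gga1 and Hexa made up the rest of the 3 genes lower by the unadjusted p. The Gga1 value of -0.45 became 0.02 with GC and length trends taken out. The median over the list was -0.10, and 0.04 with those trends taken out.

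Notch pathway genes, the setting in which Dlk1 acts, lay lower more often than higher. Of 22 listed, 21 were tested, and edgeR called 0 over all genes. By an unadjusted p below 0.05 in edgeR, 0 were higher and 7 lower (11.8% and 11.2% of all genes). DESeq2 called 0 higher and 3 lower (background 6.50% and 4.68%). In 12 of the 21 both knockout-labelled libraries lay below both controls, 57.1% against 29.7% of all genes. The median log2 fold change was -0.44, and -0.14 with GC and length trends taken out. Dll1, a Notch ligand, was at 10.2 and 11.6 CPM in controls, against 4.06 and 3.58 CPM in the Cre+ libraries (log2 fold change -1.51 ± 0.26, SE; adjusted p = 0.0925 in edgeR, 8.44e-05 in DESeq2). The ligand Jag1 and the receptors Notch3 and Notch1 had log2 fold changes of -0.76, -0.84 and -0.62, with edgeR adjusted p-values of 0.115, 0.115 and 0.127. DESeq2 called Jag1 and Notch3 and not Notch1. With GC and length trends taken out these 3 values were -0.60, -0.37 and -0.17. Endothelial and mural cells are rich in Notch receptors. Endothelial markers summed to 1640 and 1748 CPM in the controls and 1503 and 1794 CPM in the Cre+ libraries. Of these 10 markers 4 lay wholly below the controls (40.0%, against 29.7% of all genes) and 0 above (26.5% of all genes). At an unadjusted p under 0.05 in edgeR 2 were lower (11.2% of all genes). Emcn overlapped between the groups, at 75.1 CPM in knockout-labelled 1 and 267.8 CPM in knockout-labelled 2. Pericyte and smooth muscle markers summed to 1185 and 1433 CPM and to 2425 and 1989 CPM. By the same unadjusted threshold 1 of 10 was higher and 3 were lower (11.8% and 11.2% of all genes). The higher one was Acta2, at 173 and 332 and then 1375 and 1137 CPM. Their part in the Notch values was not tested.

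Genes that keep or write imprints were tested for 17 of 20. edgeR called 0 over all genes, while 1 was higher and 4 lower by an unadjusted p below 0.05 (11.8% and 11.2% of all genes). DESeq2 called 1 higher and 3 lower (background 6.50% and 4.68%). The median log2 fold change was -0.19, and it was -0.34 without knockout-labelled 1, -0.04 without knockout-labelled 2 and -0.06 with GC and length trends taken out. Ehmt2, a histone H3K9 methyltransferase, was at 135 and 121 CPM in controls, against 76.9 and 75.8 CPM in the Cre+ libraries (log2 fold change -0.75 ± 0.16, SE; edgeR adjusted p = 0.0937), a value that became -0.26 with GC and length trends taken out. Arid4a and the methylcytosine oxidase Tet2 had log2 fold changes of -0.67 and -0.69 (edgeR adjusted p = 0.0981 and 0.113). Uhrf1, which recruits the maintenance methyltransferase during DNA replication, was at 15.2 and 11.4 CPM and at 31.6 and 19.3 CPM (log2 fold change 0.94 ± 0.30, SE; edgeR adjusted p = 0.149). Trim28, Zfp445, Ctcf and Dnmt1 had edgeR adjusted p-values between 0.377 and 0.678.

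**Figure D5:**
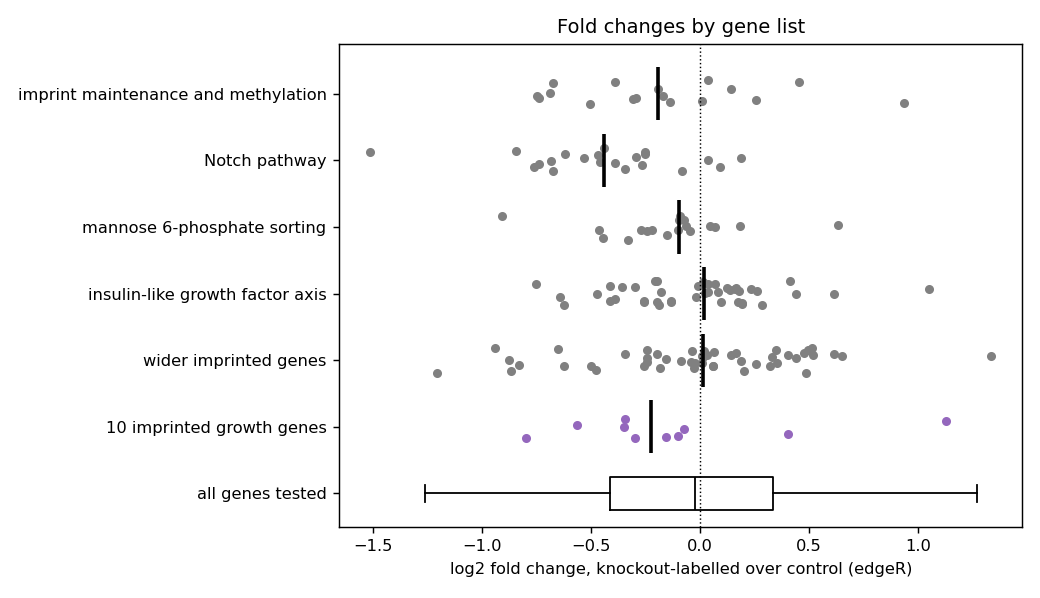
Log2 fold changes, knockout-labelled over control, of the tested genes of each list (points; the vertical placing within a row is arbitrary, black bars are medians) beside all 18157 genes tested (box of the quartiles with the median, whiskers at the 5th and 95th percentiles). The 10 imprinted growth genes have a median of -0.23, further imprinted genes one of 0.01 and Notch genes one of -0.44, which is -0.14 with GC and length trends taken out.

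Genes with a pattern like those of the best known pair were sought by the root mean square difference of centred log2 CPM over the 4 libraries, among 16260 protein-coding and long noncoding genes. Closest to H19 were Actr2 and Usp46 at 0.0098 and 0.011, and 2940 genes lay within 0.2. Closest to Igf2 were Pirt and Ces3b at 0.033 and 0.035, with 220 genes within 0.2. With 4 libraries many genes share such a pattern.

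Defining markers of several other tissues were near 0. The hepatocyte genes Alb and Afp had at most 10 counts in any library, and Ahsg, the one marker of that list above 2 CPM, had 40.5 CPM in control 1, 27.3 CPM in control 2, 15.2 CPM in knockout-labelled 1 and 97.3 CPM in knockout-labelled 2. Of skeletal muscle markers, Myod1, Myf5, Myf6 and Pax7 had at most 3 counts in any library, and the list's sum of 1262 to 2114 CPM came mostly from Ckm and Acta1, which the heart also expresses. Of 9 macrophage markers 7 lay below both controls in both knockout-labelled libraries (77.8%, against 29.7% of all genes) and 1 above. DESeq2 called Cd68 and Csf1r lower (adjusted p = 0.000278 and 0.0309) and Mrc1 higher (adjusted p = 0.0115). The list summed to 209 and 166 CPM in the controls and 130 and 160 CPM in the Cre+ libraries. Erythroid markers summed to 1092 and 1124 CPM and to 766 and 663 CPM. Of the 8 tested, 5 lay below both controls in both knockout-labelled libraries (62.5%, against 29.7% of all genes) and 1 above (12.5%, against 26.5%). DESeq2 called 2 of them lower, Hba-a2 and Hbb-bs, and 0 higher (background 4.68% and 6.50%). Epicardial markers summed to 181 and 180 CPM and to 201 and 201 CPM. Brown fat markers summed to between 1022 and 1605 CPM, nearly all of it from Fabp4, which endothelial cells also express and which overlapped between the groups. Ucp1, Adipoq, Plin1 and Elovl3 of that list had at most 4 counts in any library. Cidea, at 37.4 and 35.5 CPM in controls and 39.5 and 42.8 CPM in the Cre+ libraries, and Dio2, at 3.56 and 4.66 and then 10.8 and 7.34 CPM, lay above the controls. DESeq2 called Dio2 higher (adjusted p = 0.0163; edgeR adjusted p = 0.130). The part of any of these cells in the members' values was not tested.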

How the data were processed

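RNA from newborn mouse ventricles was enriched for polyA, and libraries were made with a Kapa stranded kit, per the labels' protocols. The submitters' processing notes name STAR 2.5.3a, HTSeq 0.6.1 and GRCm38. The counts that the authors deposited are whole reads per gene without scaling, and the series table repeats them. Its log2 fold changes, p-values and adjusted p-values are the authors', whose notes name DESeq2 1.18. Of its other 14 columns, 4 hold per-sample values, which were not used. The 5 HTSeq summary categories stayed out of library sizes. Reads outside genes made up 3.18% to 6.45% of all counted reads and ambiguous ones 3.90% to 4.85%.

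Identifiers were matched to GENCODE vM21 (53360 of 53465). Counts were fitted in R 4.3.3 with edgeR 4.0.16 (filterByExpr, TMM factors of 1.08, 1.10, 0.972 and 0.869, quasi-likelihood test, no covariates, Benjamini-Hochberg over 18157 genes). Alternatives used DESeq2 1.42.0, limma 3.58.1 and mgcv 1.9.3 (trends with GC content and exon length). The fits were also run on simulated counts, drawn independently for each library. Those counts do not carry the sex, T-cell and mapping differences of these libraries, so they cannot show how the fits deal with them. Replicates of a group differed far beyond counting error (chi-square per degree of freedom 50.2 and 119). The members and the 17 other lists were chosen with earlier results of these data known. Genes named were the members, their listed imprinted neighbours, up to 4 genes of a list with the smallest p, and for markers the 2 most abundant. Igf1, Igf1r, Insr, M6pr, Cdkn1c and the markers named for low counts were chosen after their values were seen, as were Emcn, Trim28, Zfp445, Ctcf and Dnmt1. 2 listed symbols were not matched.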

Additional observations from a re-analysis of the deposited data

How the results depend on the processing

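The number of genes edgeR called, 2, was 554 with no filter on low counts, 18 with the replicate block, 1754 in DESeq2 and 0 in limma-voom, and it ranged from 0 to 30 when 1 library was left out. The number of members called, 0 in edgeR, was 1 in DESeq2 and 0 under every other alternative tried, the replicate block and each left-out library included. Same-numbered libraries deviated in opposite directions (r = -0.12 across 18157 genes, which are not independent replicates), and pairing them crosswise, an alternative chosen after seeing the data, gave 941 calls and 0 members. Scaling by library totals moved the median of all genes from -0.02 to -0.26, and relative to that median the members ran from -0.75 for Igf2 to 1.13 for Mest. Of 120 member values under 12 alternatives, 5 changed sign, none of them past a threshold. With 1 library left out, Dlk1 ranged from -0.660 to 0.0325 (without knockout-labelled 1 and 2), Grb10 from -0.521 to 0.308 (likewise) and Peg3 from -0.153 to 0.0143 (without knockout-labelled 2 and 1). With GC and length trends taken out, Grb10 was at 0.0858 and Peg3 at 0.0760. The causes were not tested. With 2 libraries a group, the 95% intervals of 8 of the 10 members span 0.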

Other observations

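Some genes of the insulin-like growth factor axis crossed the groups, high in control 1 and knockout-labelled 2 and low in control 2 and knockout-labelled 1. They were picked after their values were seen. Igfbp3, a binding protein that carries IGFs, was at 92.3 and 31.9 CPM in controls 1 and 2, against 34.1 and 131 CPM for knockout-labelled 1 and 2. Stc2, an inhibitor of the protease that frees IGFs from their binding proteins, was at 28.6 and 13.5 CPM and at 14.9 and 49.6 CPM in the same order. Pappa, that protease, was at 5.94 and 5.29 CPM and at 2.55 and 8.93 CPM, so its controls lay close together and only the knockout-labelled libraries lay apart. Their edgeR adjusted p-values were 0.767, 0.581 and 0.986. Igfbp5, another binding protein, did not share this order, at 699, 711, 784 and 396 CPM, and was lowest in knockout-labelled 2, as Igf2 and Grb10 were.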
